A study of Homo sapiens with 4 samples.

Results

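The cells described here are the human tumour cells with the most transcripts of 3 secreted matrix metalloproteinase genes, MMP1, MMP9 and MMP10. They were chosen by ranking human barcodes of both libraries on the share of their human unique molecular identifiers (UMIs, counts of distinct transcript molecules) that fell on these genes, and taking the top 8%. This gave 348 of 4348 human barcodes, out of 34722 barcodes of human and mouse cells in all. A human barcode had at least 90% of its gene UMIs on human genes, at least 2000 gene UMIs, and at most 20% of its human UMIs on mitochondrial genes. The other 4000 human barcodes are called the others.

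MCF10DCIS.com is a human breast line that forms lesions like ductal carcinoma in situ when grafted. It was seeded on decellularized extracellular matrix (dECM) from mammary glands of young (2 to 3 months) or aged (18 months or older) mice, and cultured for 12 days. The scaffolds were then placed in right or left fat pads of Rag1-/- mice (without mature lymphocytes of the T and B lineages). The growths with adjacent stroma were taken after 4 weeks. Each matrix age gave 1 droplet library of pooled, hashtagged cells, the young pool and the aged pool, so the comparison has 1 sample a group and no test across samples. The age refers to the donor of the matrix, as the sample labels name it. Recipients of both pools share the Rag1-/- genotype and the same tumour line, and the labels tie no hashing tag to an animal.

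Matrix metalloproteinases are zinc proteases, most of them secreted as inactive precursors, that cut proteins outside the cell. MMP1 is a collagenase that cleaves fibrillar collagen, MMP9 is a gelatinase that degrades denatured collagen and basement membrane collagen, and MMP10 (stromelysin-2) cuts several matrix proteins and can activate other family members. Carcinoma cells in situ stay behind a basement membrane of laminin and type IV collagen, and these proteases are known from cells at the edge of wounds and tumours. Invasion itself was not measured, so the cells are called MMP-high here.

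The 3 genes lie at 2 places in the genome. In GENCODE 29 on GRCh38, MMP10 (ENSG00000166670) spans 102770503 to 102780628 and MMP1 (ENSG00000196611) 102789920 to 102798160 on chromosome 11, both on the minus strand with 9291 bases between them. They belong to a cluster that also holds MMP7, MMP3 and MMP13 within 435 kb. MMP9 (ENSG00000100985) is on chromosome 20, from 46008908 to 46016561 on the plus strand.

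Promoters are shown for MMP10 and for 5 other genes that were at least 4-fold higher in the MMP-high cells of both pools, because they hold the letters TGANTCA. This motif is the core bound by AP-1, the FOS and JUN family of transcription factors known for control of many metalloproteinase genes. Its letters read the same on both strands. The windows are the 250 bases before the RefSeq start on GRCh38.p14, 5′ to 3′ on the gene's strand, with the motif in capitals. LAMA3 encodes a laminin chain, IL1A a cytokine, IVL a cornified envelope protein, CD68 a lysosomal membrane protein and TM4SF19 a tetraspanin-like membrane protein.
MMP10: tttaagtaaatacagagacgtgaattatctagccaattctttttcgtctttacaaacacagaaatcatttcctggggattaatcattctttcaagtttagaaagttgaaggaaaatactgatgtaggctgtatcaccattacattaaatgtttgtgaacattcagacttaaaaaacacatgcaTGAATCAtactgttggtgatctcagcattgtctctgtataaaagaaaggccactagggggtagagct
LAMA3: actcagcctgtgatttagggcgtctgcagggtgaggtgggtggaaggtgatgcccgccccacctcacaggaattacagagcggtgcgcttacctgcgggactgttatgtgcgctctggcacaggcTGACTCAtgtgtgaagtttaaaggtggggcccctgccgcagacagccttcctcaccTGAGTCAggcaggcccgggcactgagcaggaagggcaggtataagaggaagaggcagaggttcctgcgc
IL1A: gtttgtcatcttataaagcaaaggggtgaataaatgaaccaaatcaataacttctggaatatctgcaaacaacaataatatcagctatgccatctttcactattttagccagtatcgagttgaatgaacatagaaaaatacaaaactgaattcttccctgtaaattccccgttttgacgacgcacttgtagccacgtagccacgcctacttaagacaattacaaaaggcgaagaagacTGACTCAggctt
IVL: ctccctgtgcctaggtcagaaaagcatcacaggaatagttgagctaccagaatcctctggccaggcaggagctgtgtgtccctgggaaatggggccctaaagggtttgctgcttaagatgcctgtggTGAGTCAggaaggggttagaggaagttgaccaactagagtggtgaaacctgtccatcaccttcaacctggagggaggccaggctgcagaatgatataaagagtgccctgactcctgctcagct
CD68: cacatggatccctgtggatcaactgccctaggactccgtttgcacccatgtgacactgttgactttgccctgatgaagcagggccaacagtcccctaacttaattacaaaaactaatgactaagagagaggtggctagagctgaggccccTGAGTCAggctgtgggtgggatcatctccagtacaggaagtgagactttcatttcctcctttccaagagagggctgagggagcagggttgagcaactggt
TM4SF19: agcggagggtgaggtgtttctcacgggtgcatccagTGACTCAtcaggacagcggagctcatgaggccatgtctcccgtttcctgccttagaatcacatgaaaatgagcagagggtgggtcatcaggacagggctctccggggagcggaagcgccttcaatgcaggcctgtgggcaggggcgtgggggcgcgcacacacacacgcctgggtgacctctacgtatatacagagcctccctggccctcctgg
These windows are chr11:102780629-102780878 (minus) for MMP10, chr18:23872770-23873019 (plus) for LAMA3 and chr2:112784494-112784743 (minus) for IL1A. They are chr1:152908296-152908545 (plus) for IVL, chr17:7579388-7579637 (plus) for CD68 and chr3:196338389-196338638 (minus) for TM4SF19. The RefSeq starts used for LAMA3, IL1A, CD68 and TM4SF19 lie inside the longer GENCODE genes. The matches of LAMA3, IL1A and CD68 therefore fall within the GENCODE gene and not before it. In MMP10 the match begins 67 bases before the start, and LAMA3 has matches at 125 and 69 bases. IL1A has its match at 12 bases, IVL at 123, CD68 at 100 and TM4SF19 at 214.

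Of the genes at least 4-fold higher in both pools, 130 had a promoter in the table and 18 of these (13.8%) held TGANTCA. The share was 4.12% of 4731 measured genes with a promoter and 6.55% of the 27195 promoters of the same length searched. It was 5.71% of 105 genes at least 4-fold lower. The windows of MMP14, LAMB3, PLAU, COL17A1, LCE3D and ITGA2 held no match, which says only that these letters are not in those 250 bases.

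The ranking gave a continuous slope with no gap at the threshold. The lowest member had 5.145 UMIs of the 3 genes per 10000 human UMIs and the highest barcode outside had 5.143. There were 60 members within 1.5-fold above the threshold and 83 other barcodes within 1.5-fold below it. The median member had 16.7 and the highest 304 per 10000, or 47.5 UMIs in the median and 3 to 1021 UMIs over all members. Among the others 3281 (82.0%) had no UMI of the 3 genes, and members held 90.2% of all UMIs of these genes in human barcodes. The 10 highest members held 19.9% of the members' UMIs of the 3 genes.

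**Figure D1:**
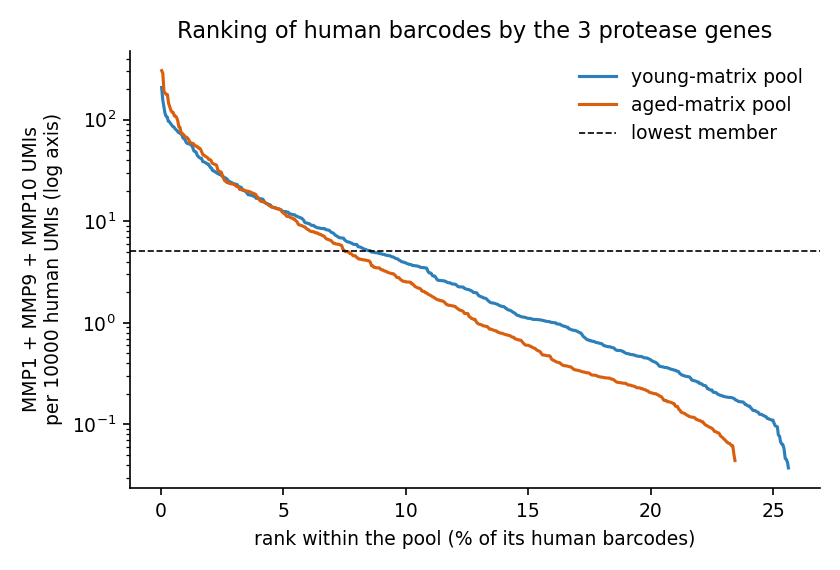
UMIs of MMP1, MMP9 and MMP10 per 10000 human UMIs (log axis) against the rank of each human barcode within its pool, as a percentage of the pool's human barcodes; barcodes with no such UMI are not drawn. Both curves cross the level of the lowest member (5.145, dashed line) without a step.

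The members were 188 of 2210 human barcodes in the young pool (8.51%, exact binomial 95% interval 7.38 to 9.75%) and 160 of 2138 in the aged pool (7.48%, 6.40 to 8.68%). The ratio of the aged to the young share was 0.880 (0.719 to 1.08), an interval that includes 1 but covers counting error only. With 1 library a group the spread between animals cannot be given, so this interval cannot decide whether matrix age goes with the share. Sets of barcodes with the same hashing tag differed far more within a pool than the pools did. In the young pool the share was 2.41% of 540 barcodes with tag H-HTO-4 (1.29 to 4.08%), 11.6% of 146 with H-HTO-3 and 17.7% of 130 with H-HTO-6 (11.6 to 25.4%). In the aged pool it was 14.4% of 536 with H-HTO-2 (11.5 to 17.6%), 7.43% of 202 with H-HTO-3 and 10.7% of 187 with H-HTO-4. Barcodes with no single dominant tag were 1280 and 1120, with shares of 9.22% and 3.21%. Over barcodes with 1 tag only, the shares were 7.53% and 12.2% and their ratio was 1.62, the opposite direction. Without tag H-HTO-2 of the aged pool the ratio was 0.609. What the tags stand for, and so their part in the share, was not tested.

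**Figure D2:**
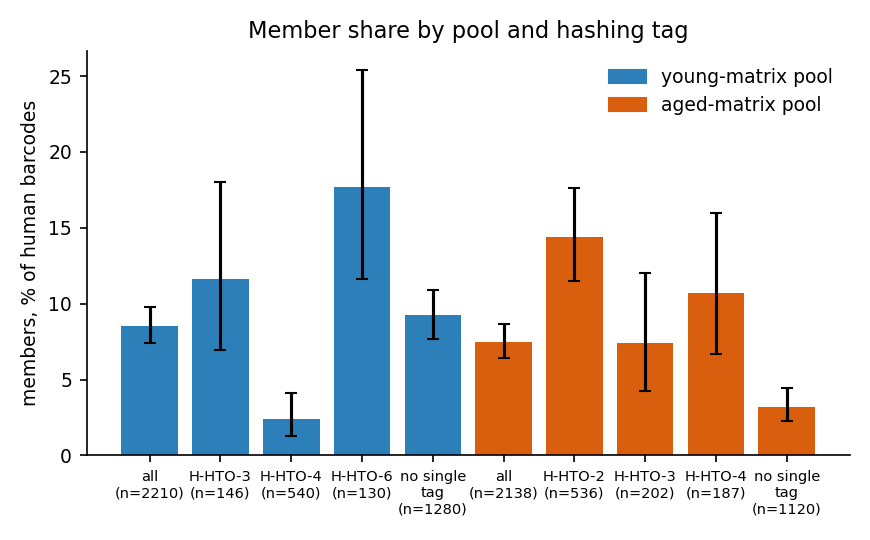
MMP-high barcodes as a percentage of human barcodes (bars from 0) in each pool and in each hashing tag set of at least 100 human barcodes, with exact binomial 95% intervals and the number of barcodes under each bar. The tag sets of 1 pool run from 2.41% to 17.7%, wider apart than the 8.51% and 7.48% of the whole pools.

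The members kept transcripts of the line's epithelial keratins, some of them at lower levels. KRT17 had 2949 CPM (UMIs summed over the group and scaled to 1000000 human UMIs) in members of the young pool and 3519 in the aged pool, against 3976 and 3938 in the others. The basal keratin gene KRT14 had 886 and 1042 CPM against 1035 and 917. KRT5, a basal keratin gene, was lower at 309 and 373 CPM against 793 and 784. The luminal keratin genes KRT8, at 471 and 493 CPM against 1113 and 1153, and KRT18, at 779 and 786 CPM against 1380 and 1432, were also lower. EPCAM, the epithelial adhesion molecule, had 93.3 and 100.3 CPM against 324 and 336, and so was lower while still seen in 70.7% and 70.0% of members. Human leukocyte and stromal markers were near 0: PTPRC had 1 UMI over all members, CD3E 0, and COL3A1 1. COL1A1, the type I collagen gene, had 16.9 and 21.8 CPM against 6.54 and 7.10. CD68, also used as a macrophage marker, had 65.7 and 66.1 CPM against 5.09 and 3.98, and was the only measured gene among the 10 such markers.

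Depth and quality were similar but not equal between the groups. The median member had 29326 human UMIs in the young pool and 27074 in the aged pool, against 32049 and 31980 in the others. Members had a median of 4595 and 4512 genes against 5248 and 5269, and a median mitochondrial share of 2.42% and 2.58% against 4.19% and 4.13%. Mouse UMIs were 238 and 306 in the median member and 233 and 256 in the median other barcode. Summed over barcodes, members had 6225049 and 4854178 human UMIs and the others 81559546 and 81942950. A Scrublet doublet score of 0.25 or more was found for 4.89% of members and 6.35% of others. Surface antibody counts were 0.0504 to 0.109 per barcode over the 4 groups, too few to use. The pools shared 3 human barcode sequences, none of them members.

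Of the 3 genes that defined the group, MMP9 gave the most UMIs. Its level was 1277 CPM in members of the young pool and 1461 in those of the aged pool, against 17.2 and 11.9 in the others. MMP1 had 962 and 1072 CPM against 4.16 and 2.59, and MMP10 had 425 and 583 against 3.70 and 2.50. These differences are what the ranking selected on and are given as a description only. A UMI of MMP9 was found in 86.2% and 88.1% of members, of MMP1 in 74.5% and 73.8%, and of MMP10 in 70.2% and 64.4%. Among mouse barcodes, which should lack the human gene, 1.22% and 1.18% had a human MMP9 UMI, at median depths of 2451 and 2410 gene UMIs. After thinning to 2000 UMIs, MMP9 was seen in 70.2% and 71.9% of members and in 3.21% and 2.07% of the others.

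The 3 genes did not fill every member alike. A UMI of all 3 was found in 174 members, of 2 in 100 (28.7%) and of 1 only in 74 (21.3%). MMP9 was the most abundant of the 3 in 204 members, MMP1 in 106 and MMP10 in 28, with ties in 10. In the 62 and 44 members led by MMP1, MMP10 was at 799 and 1285 CPM, while in the 108 and 96 led by MMP9 it was at 140 and 187 CPM. Both the choice of the members and this grouping use the levels of the 3 genes, so these values are a description. In the members led by MMP10, MMP1 was at 495 and 628 CPM and MMP9 at 295 and 354 CPM.

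When barcodes were ranked on 2 of the genes, the third was not used in that ranking. The 3 genes were themselves chosen with earlier results of these data known, so the values below are a description and not independent support. The top 8% on MMP9 and MMP10 had MMP1 at 866 CPM in the young pool and 1010 in the aged pool, against 8.34 and 5.75 outside. The top 8% on MMP1 and MMP9 had MMP10 at 376 and 535 CPM, against 6.22 and 5.10. Leaving MMP9 out gave MMP9 at 964 and 1033 CPM, against 39.5 and 37.5, and 249 of the 348 members were the same, fewer than the 318 and 326 shared when MMP1 or MMP10 was left out. In a map of the 15 nearest barcodes built without the 3 genes, 51.5% and 56.1% of a member's neighbours were members on average. For the others this was 3.53% and 2.78%.

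The other metalloproteinase genes differed less, and MMP7 in the opposite direction. A gene was measured when it had at least 20 CPM in the higher group and at least 100 UMIs over both groups in each pool, and it stood apart at 1.5-fold or more in the same direction in both pools. By this rule 937 of 5783 measured genes (16.2%) were higher and 1346 (23.3%) were lower in the members, and none stood apart in opposite directions. All of this is the contrast that the ranking itself set up, so it describes the group and is not a test. The median log2 ratio of all measured genes was -0.18, and 41.0% of the genes that stood apart were higher. With TMM scaling 1071 were higher and 1090 lower (49.6% higher, median -0.0853), and with median-of-ratios scaling 1247 and 876 (58.7%, median 0.0172). Either scaling moved all ratios of a pool by the same amount, under 1.5-fold. A gene that stood apart thus could not change its direction, and its unchanged direction is no separate check. The list medians below stand beside the -0.18 of all genes.

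**Figure D3:**
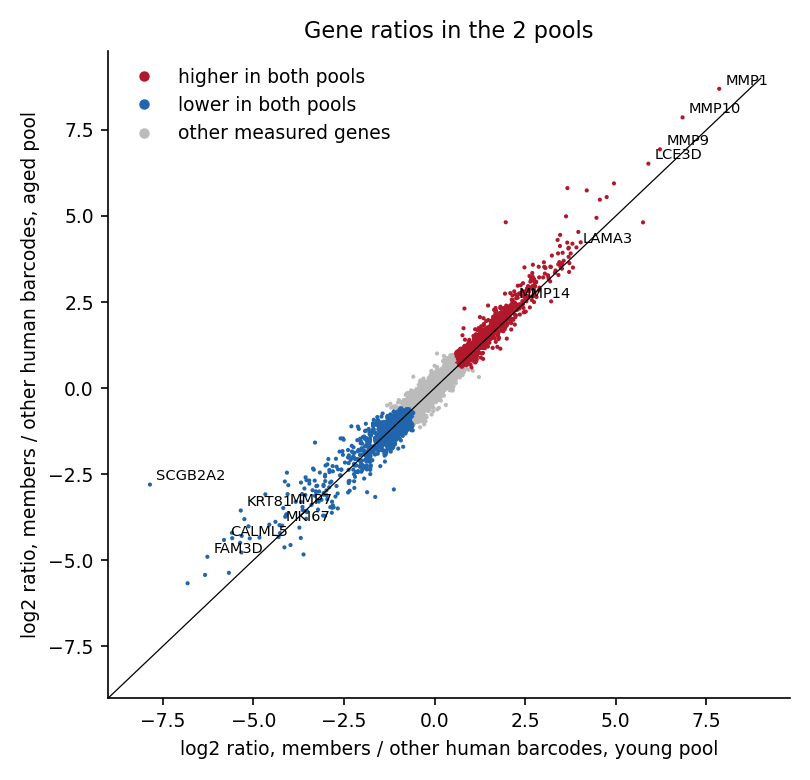
Log2 ratio of members to other human barcodes for each of 5783 measured genes, young pool on the x axis and aged pool on the y axis, with the line of equality; red points are the 937 genes higher and blue points the 1346 lower in both pools. The genes follow the line in both pools, and SCGB2A2 lies far from it.

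Of 23 metalloproteinase genes on the family list, 6 were measured, 5 of them higher and 1 lower. The higher genes include MMP1, MMP9 and MMP10, which the ranking selected on. Besides these, only MMP14 and MMP2 were higher and MMP7 lower. MMP14 encodes the membrane-anchored metalloproteinase that activates proMMP2 at the cell surface. It had 63.8 CPM in members and 14.4 in the others of the young pool, and 76.4 and 13.6 in the aged pool (log2 ratios 2.15 and 2.49). Its partner MMP2, a gelatinase, had 56.7 against 24.7 and 60.8 against 26.6 CPM (1.20 and 1.19). MMP7, matrilysin, an epithelial protease of glands, went the other way with 14.9 against 270.1 and 20.8 against 233 CPM (-4.18 and -3.49). MMP3, next to MMP1 in the cluster, did not reach the minimum in the aged pool and had 33.7 against 0.552 and 15.2 against 0.464 CPM, with 34.8% of the young members' UMIs in 1 barcode. MMP13 had 36 UMIs in young members, 97.2% of them in 1 barcode, and 1 UMI in aged members.

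A list of tissue inhibitor (TIMP) genes and other genes linked to metalloproteinase control had 2 of 5 measured genes higher and 1 lower. The lower gene was LCN2, and no measured TIMP gene was lower. TIMP1, the inhibitor that binds proMMP9, had 4417 CPM in members and 995 in the others of the young pool, and 4073 and 869.5 in the aged pool (log2 ratios 2.15 and 2.23). SPOCK1, which encodes the matrix proteoglycan testican, had 153 against 13.3 and 144 against 11.6 CPM (3.52 and 3.64). TIMP2 (0.13 and 0.18) and TIMP3 (0.69 and 0.38) did not stand apart. LCN2, whose product lipocalin binds MMP9, was lower at 9.64 against 94.8 and 21.8 against 65.5 CPM (-3.30 and -1.58). Of 5 measured ADAM genes, which encode membrane proteases that shed surface proteins, ADAM19 was higher, at 58.3 against 5.28 and 76.8 against 3.52 CPM. ADAM15 was lower, and ADAM9, ADAM10 and ADAM17 had mean log2 ratios of 0.43 to 0.59 without standing apart in both pools.

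In the plasminogen system urokinase turns plasminogen into plasmin, a broad protease that also activates metalloproteinases. The list used for this system had 8 of 13 measured genes higher and 3 lower. PLAU, the urokinase gene, had 831 CPM in members and 90.7 in the others of the young pool, and 853 and 74.0 in the aged pool (log2 ratios 3.20 and 3.53). Its receptor gene PLAUR had 617 against 290.5 and 761 against 280.2 CPM (1.09 and 1.44). SERPINB2, SERPINB5, SERPINB8, SERPINE2 and the plasmin cofactor S100A10 were also higher, with mean log2 ratios of 0.65 to 1.57. The 3 lower genes on the list were the kallikrein-related peptidase genes KLK5, KLK6 and KLK10, with mean log2 ratios of -4.58, -5.05 and -4.26. PLAT, the tissue-type activator, and ANXA2 did not stand apart.

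Most measured laminin and basement membrane genes were higher. In that list 13 of 15 measured genes were higher and none lower (median log2 ratio 1.59). LAMA3 and LAMB3 encode laminin chains of epithelial basement membranes. LAMA3 had 912 CPM in members and 60.5 in the others of the young pool, and 797 and 47.0 in the aged pool. LAMB3 had a mean log2 ratio of 3.20. COL17A1, the hemidesmosome collagen, had 320.2 against 24.7 and 303 against 21.6 CPM. The basement membrane genes LAMB2 and DST did not stand apart, at mean log2 ratios of -0.57 and -0.02.

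Genes of receptors for these matrix proteins were also higher or did not stand apart. Of 15 measured integrin and matrix receptor genes 9 were higher and none lower (median 0.95). ITGA2, the collagen receptor chain, had 1042 against 172 CPM in the young pool and 1056 against 151 in the aged pool. ITGA3, the laminin receptor chain, had 387 against 92.9 and 398 against 92.6 CPM. ITGA5, a chain of the fibronectin receptor, had 292 against 44.7 and 327 against 41.8 CPM (log2 ratios 2.71 and 2.97). ITGB8, CD151 and DDR1 were at the low end, with mean log2 ratios of -0.37 to 0.05.

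Genes of invadopodia, the actin-rich protrusions that deliver metalloproteinases to the matrix, had 11 of 22 measured genes higher and 1 lower (median 0.67). PXN, the focal adhesion adaptor paxillin, had 91.1 against 25.4 CPM in the young pool and 108 against 23.4 in the aged pool. MYO10, a filopodial motor, had 206 against 71.5 and 246 against 70.6 CPM. SH3PXD2A, which encodes the invadopodium scaffold TKS5, had 169 against 64.2 and 165 against 67.5 CPM (log2 ratios 1.40 and 1.29). The core genes CTTN (0.22 and -0.12), WASL (0.28 and 0.19) and ACTR2 (0.13 and 0.11) did not stand apart. ENAH, an actin elongation factor, was the gene that was lower, at 119 against 203 and 106 against 217 CPM.

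The epithelial to mesenchymal list had 13 of 17 measured genes higher and 1 lower (median 1.85), yet the cell junction list was not its mirror. LOXL2, a collagen cross-linking enzyme, had 139 against 15.8 and 122 against 12.9 CPM. AXL, a receptor kinase, had 50.8 against 8.26 and 56.2 against 5.89 CPM. SNAI2, a transcription factor that represses epithelial genes, had 58.8 against 11.4 and 61.2 against 11.3 CPM, and VIM, the intermediate filament vimentin, had a mean log2 ratio of 1.89. The calcium-binding protein gene S100A4, often counted as mesenchymal, was lower (-2.12 and -1.12), while TWIST1 and LOX did not stand apart. Of 19 measured junction genes 2 were higher and 4 lower. CDH3, P-cadherin, had 158 against 50.6 and 171 against 47.3 CPM, and CDH1, E-cadherin, had 162 against 148 and 181 against 147 CPM without standing apart. OCLN, EPCAM, CLDN4 and CLDN7 were lower, with mean log2 ratios of -1.88 to -0.95.

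Differentiation markers were mixed for the basal and squamous lists and lower for the luminal list. Of 14 measured luminal genes 10 were lower and none higher (median -1.49), among them KRT19 at 8.19 against 37.7 and 9.68 against 39.99 CPM. AGR2, a secretory pathway gene, had 1.77 against 60.6 and 2.88 against 59.5 CPM. Of 15 measured basal genes 6 were higher and 3 lower. EGFR, the epidermal growth factor receptor, had 163 against 56.4 and 159 against 55.1 CPM, and TP63, the basal transcription factor, 25.5 against 9.65 and 23.3 against 9.24 CPM. KRT5, KRT15 and KRT16 were lower, with mean log2 ratios of -1.21, -0.97 and -1.70. Of 10 measured squamous genes 5 were higher and 4 lower. CALML5, a keratinocyte calcium sensor, had 4.18 against 234 and 10.9 against 232.5 CPM, whereas the envelope gene IVL had 34.4 against 6.17 and 42.9 against 3.77 CPM. Over barcodes with 1 hashing tag only 1 of 10 squamous genes was higher, and 4 were lower.

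**Figure D4:**
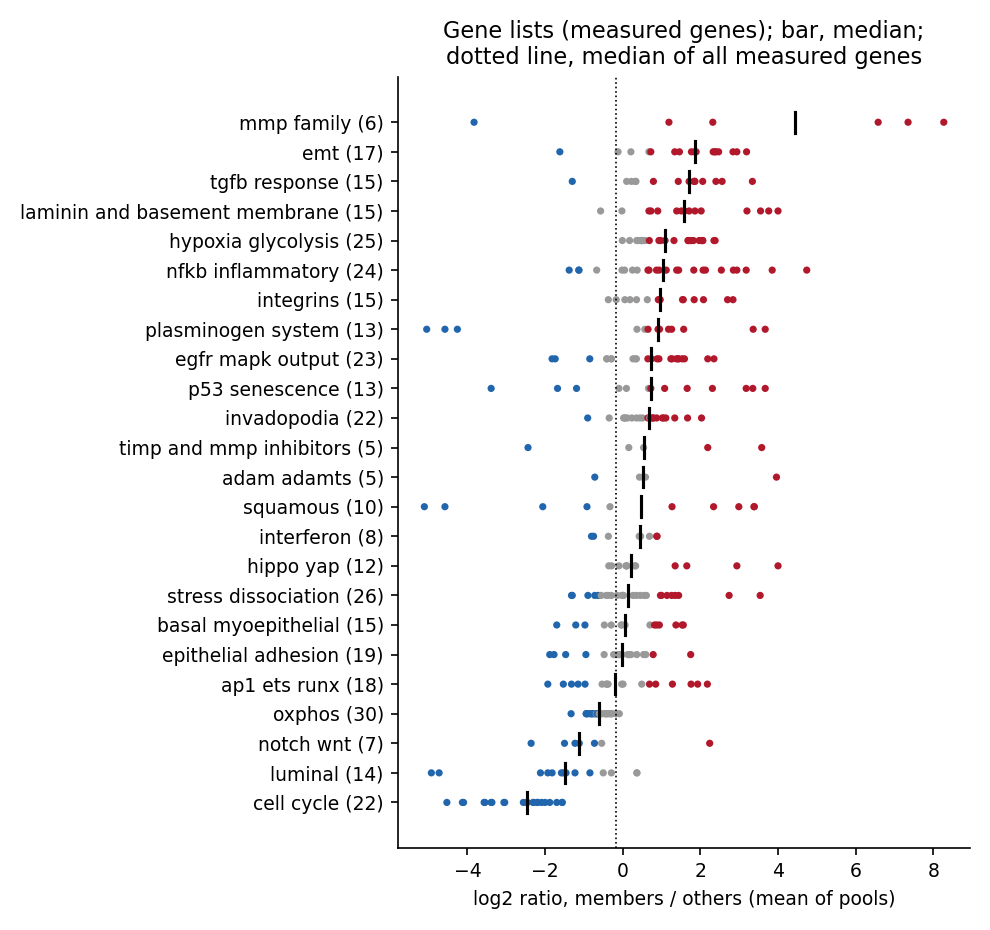
Log2 ratio of members to other human barcodes, mean of both pools, for each measured gene (points) of each list, with the number measured in brackets; red is higher and blue lower in both pools, the bar is the list's median and the dotted line the median of all measured genes (-0.18). Basement membrane and hypoxia genes lie mostly to the right, and luminal and cell cycle genes to the left. Metalloproteinase genes also lie mostly to the right, but include MMP1, MMP9 and MMP10, which the ranking selected on.

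Among the 12 genes with the highest ratios, 9 were not used in the ranking. LCE3D, a late cornified envelope gene of damaged skin, had 429 against 7.18 CPM in the young pool and 432 against 4.71 in the aged pool, from 37.2% and 40.6% of members. The top member of each pool held 25.6% and 18.6% of the members' LCE3D UMIs. MME, the membrane metalloendopeptidase neprilysin, had 20.1 against 0.650 and 36.9 against 0.598 CPM. SCG5, a secretory chaperone gene, had 77.1 against 2.87 and 78.3 against 1.67 CPM and was seen in 53.7% and 55.6% of members. ESM1, TM4SF19, CLDN14, CSF2, AKAP12 and LINC01705 completed the 12 highest, with mean log2 ratios of 4.31 to 5.28. ESM1 had 46.5% and 39.2% of its members' UMIs in 1 barcode of each pool, so its level rests on few cells.

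At the other end were the 12 genes with the lowest ratios. FAM3D, a secreted cytokine-like protein gene, had 1.45 against 111.5 CPM in the young pool and 3.71 against 111 in the aged pool. DEFB1, a defensin, had 0.321 against 36.2 and 0.618 against 31.5 CPM, from 2 and 3 UMIs in all members. SCGB2A2, the mammaglobin gene, had 1.45 against 334.5 and 34.4 against 240.3 CPM. In the aged pool 97.0% of its members' UMIs came from 1 barcode. FOXI1, FMO2, CALML5, KLK6, MUC5B, KRT23, SOSTDC1, MYBPC1 and AGR2 completed the 12 lowest, with mean log2 ratios of -5.88 to -4.73.

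Cell cycle genes were low in the members. MKI67, the proliferation marker, had 5.94 CPM in members and 115 in the others of the young pool, and 7.21 and 114 in the aged pool. TOP2A, the topoisomerase of dividing cells, had 4.34 against 80.2 and 4.74 against 75.6 CPM. A MKI67 UMI was seen in 7.98% and 6.25% of members and in 32.8% and 31.1% of the others. All 22 measured cell cycle genes were lower (median -2.47), from RRM2 at -1.56 to CCNA2 at -4.53. Among barcodes with no UMI of MKI67 or TOP2A, 312 were members, and there 858 genes were higher and 846 lower, where the lower count was 1346 over all barcodes. There the basement membrane list had 11 higher and 1 lower of 15, and the luminal list 11 lower of 14.

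Metabolic genes also differed. In the hypoxia and glycolysis list 16 of 25 measured genes were higher and none lower (median 1.09). SLC2A1, the glucose transporter GLUT1, had 614.5 against 120.3 and 638 against 125.5 CPM. EGLN3, an oxygen-sensing hydroxylase, had 111 against 21.9 and 111 against 20.8 CPM, and NDRG1, a hypoxia-responsive gene, 1465 against 343 and 1566 against 384 CPM. The glycolytic enzymes ENO1 and TPI1 did not stand apart, at mean log2 ratios of -0.01 and 0.18. Of 30 measured oxidative phosphorylation genes 13 were lower and none higher (median -0.60), with 7 lower under median-of-ratios scaling and 2 in the top 16% of barcodes. ATP5MC1, a subunit of ATP synthase, had 98.8 against 284 and 122 against 271 CPM. The lower mitochondrial share of the members, given above, moved the same way.

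Signalling genes upstream and downstream of metalloproteinase transcription were partly higher. EGF receptor ligands and feedback genes had 13 of 23 measured genes higher and 3 lower. HBEGF, a membrane-bound EGF receptor ligand, had 467 against 107 and 420.5 against 88.1 CPM, and TGFA, another ligand, had 65.7 against 14.2 and 77.9 against 13.9 CPM. SPRY4, a feedback inhibitor of the same pathway, had 48.4 against 15.6 and 48.6 against 16.5 CPM. The receptor genes ERBB2 and ERBB3 were lower, with mean log2 ratios of -1.74 and -1.82.

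In the list of AP-1, ETS and RUNX factors 6 of 18 measured genes were higher and 5 lower, with a median of -0.20 beside -0.18 for all genes. FOSL1, the AP-1 subunit FRA-1, had 65.7 against 28.0 CPM in the young pool and 73.1 against 28.9 in the aged pool. The ETS genes ETS1, ETS2 and ELK3 had mean log2 ratios of 1.93, 1.76 and 2.18. The immediate early genes FOS (-0.14 and -0.61) and JUN (0.12 and -0.10), which rise with tissue dissociation, did not stand apart, and FOSB was lower (-1.26 and -1.38). RUNX1 was lower at 68.1 against 158 and 81.6 against 174 CPM, as were the epithelial ETS genes EHF and ELF3.

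Inflammatory and transforming growth factor beta genes were mostly higher. In the NF-kB list 16 of 24 measured genes were higher and 3 lower (median 1.03). CSF2 and CSF3, which encode growth factors of granulocytes and macrophages, had 43.7 against 3.44 and 38.3 against 0.683 CPM, and 91.4 against 8.69 and 92.5 against 4.69 CPM. IL1A had 77.8 against 9.44 and 74.8 against 7.46 CPM. The chemokine genes CXCL2 and CXCL3 and the cytokine gene LIF were lower, with mean log2 ratios of -1.38, -1.13 and -1.13. In the transforming growth factor beta list 10 of 15 measured genes were higher and 1 lower (median 1.71). TGFBI, a secreted matrix protein, had 109.9 against 13.6 and 140.5 against 11.2 CPM, TGFB1, the ligand, 78.9 against 14.1 and 88.6 against 14.3 CPM, and THBS1, thrombospondin, was lower.

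Levels of these genes ran along the ranking, with a wider step at the threshold for MKI67 than for LAMA3 or PLAU. The genes shown by rank, tag set and leading gene were chosen with their values known. LAMA3 was at 1657 and 1327 CPM in the top 1% of the ranking (20 and 23 barcodes) and at 777 and 479 CPM between 4 and 8%. Just outside, between 8 and 12% of the ranking (99 and 75 barcodes), it was at 422 and 325 CPM, and in barcodes with no UMI of the 3 genes at 21.1 and 23.1 CPM. PLAU was at 638 and 593 CPM between 4 and 8% and at 510 and 429 CPM between 8 and 12%. MKI67 was at 9.25 and 9.89 CPM between 4 and 8% and at 53.9 and 49.9 CPM between 8 and 12%. KRT81, a hair keratin gene, was at 90.5 and 294 CPM between 4 and 8%, 337 and 230 between 8 and 12%, and 2851 and 2687 in barcodes with no UMI. The barcodes just outside thus had levels of LAMA3, PLAU and MKI67 between those of the members and those of the rest, and so did KRT81, except that in the aged pool its 230 CPM lay under the 294 CPM of members between 4 and 8%.

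**Figure D5:**
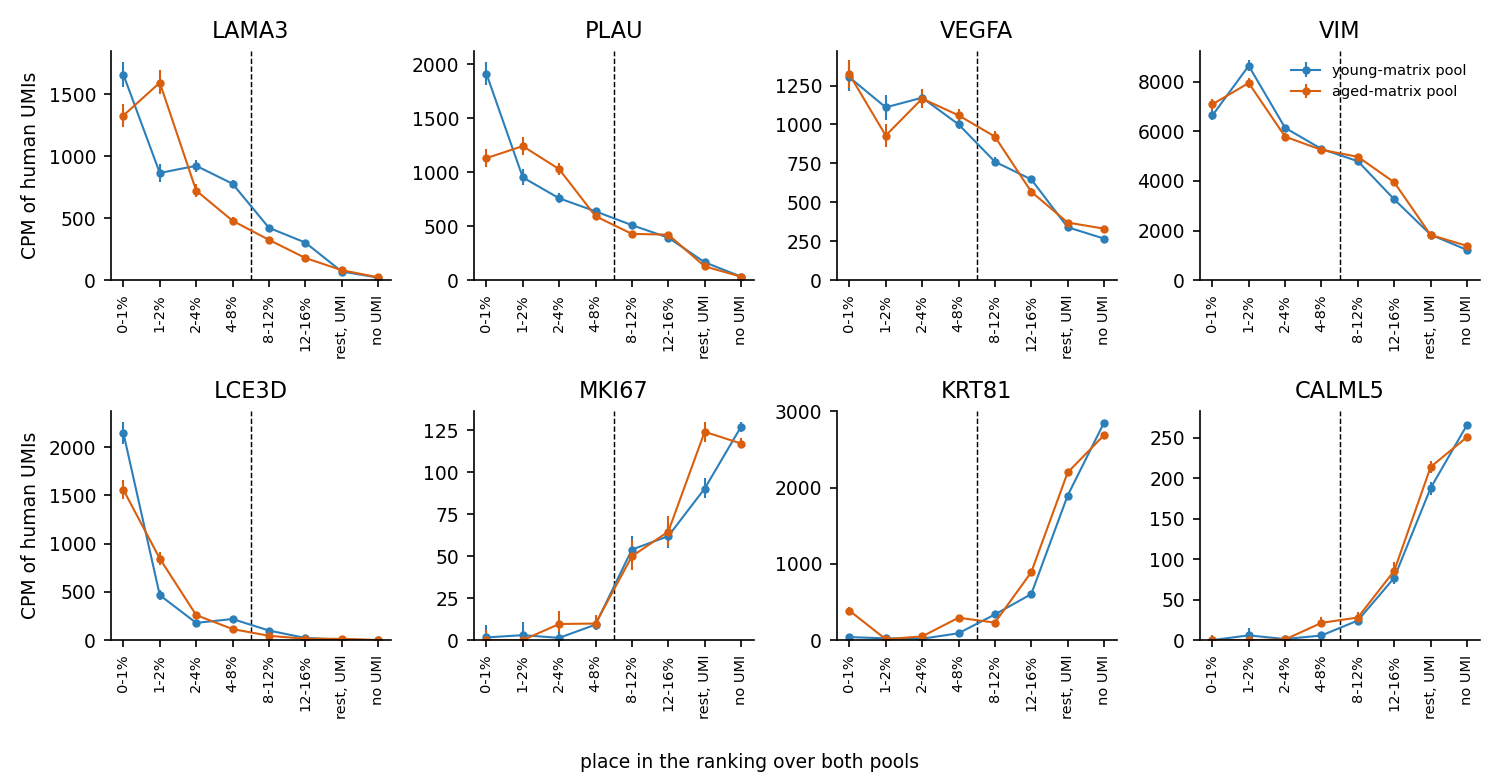
CPM of 8 genes in barcodes grouped by their place in the ranking on MMP1, MMP9 and MMP10 over both pools, with exact Poisson 95% intervals (counting error only); the dashed line is the threshold at 8%, "rest, UMI" are the remaining barcodes with a UMI of the 3 genes and "no UMI" those with none. LAMA3, PLAU, VEGFA, VIM and LCE3D have their higher levels at the left, and MKI67, KRT81 and CALML5 at the right.

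Members and others were also compared within single hashing tag sets, by the direction of the difference only. In each of the 6 sets, with 13 to 77 members, members were higher than the others for LAMA3, PLAU, VIM, VEGFA, SNAI2, HAS2, IL1A, LCE3D, IVL and CSF2. The IVL difference rested on few UMIs in some sets: in H-HTO-3 of the young pool members had 4 UMIs and a level of 2.99 to 28.1 CPM (95% interval) against 10.4 CPM in the others, and in H-HTO-3 of the aged pool 2.32 to 21.8 CPM against 4.69. CSF3, AKAP12 and PTGS2 were higher in 5 sets and lower in 1, the latter being H-HTO-3 of the young pool, where CSF3 had 5.49 CPM in members and 8.49 in the others. Members were lower in all 6 for MKI67, TOP2A, KRT81 and CALML5. The members' LAMA3 level ran from 602 to 1000 CPM over the sets, whereas LCE3D ran from 25.1 to 964 CPM. S100A8, a calprotectin subunit gene, ran from 2.75 to 1160 CPM and was higher in members in 2 sets and lower in 4. SPRR2A, a cornified envelope gene, was higher in 3 and lower in 3. Over the sets, the members' LAMA3 level thus spanned a narrower range than their LCE3D and S100A8 levels.

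Members led by different genes differed in a few of the same envelope genes. IVL was at 65.7 and 99.9 CPM in members led by MMP1 and at 22.0 and 15.1 CPM in those led by MMP9. LCE3D was at 572 and 994 CPM against 381 and 220 CPM. LAMA3 was at 904 and 755 CPM against 902 and 814 CPM, and VIM at 7004 and 6562 against 5619 and 5842 CPM.

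Between the pools, the question is whether the age of the donor matrix goes with a different state of the MMP-high cells. MMP9 was 1.14-fold, MMP1 1.11-fold and MMP10 1.37-fold higher in members of the aged pool, all under 1.5-fold. Without tag H-HTO-2 of the aged pool the log2 ratios of MMP1 and MMP9 were -0.0560 and -0.0126, and over barcodes with 1 tag those of MMP1 and MMP10 were 0.856 and 1.05, past 1.5-fold. That of MMP10 was also past it without H-HTO-4 of the aged pool (0.607) and with equal weights (0.702). Members of both pools were ranked on MMP1, MMP9 and MMP10 with 1 threshold, so these ratios are a description. In the others the direction was opposite. There MMP9, MMP1 and MMP10 had 17.2, 4.16 and 3.70 CPM in the young pool and 11.9, 2.59 and 2.50 in the aged pool. Between members of the pools, MMP14 and MMP2 differed by 1.20-fold and 1.07-fold. Of 5204 genes measured within the members, 47 (0.903%) were at least 1.5-fold higher and 29 (0.557%) lower in the aged pool. Within the others, 1 of 5410 genes (0.0185%) was higher and 8 (0.148%) lower. The members have far fewer UMIs than the others, and the spread of the log2 ratio over genes was 0.22 (SD over genes) in members and 0.09 in the others. Without each gene's top member 38 were higher and 21 lower, 34 and 16 of them the same genes, and without tag H-HTO-2 of the aged pool the counts were 122 and 81. With every barcode weighted equally 190 genes were higher and 49 lower.

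Single barcodes carried much of the largest pool ratios. PAEP, a glycodelin gene, had 0.964 CPM in young members and 23.3 in aged members, with 88.5% of the latter in 1 barcode, and SCGB2A2 had 97.0% in 1 and a log2 ratio of 0.514 in the top 16%. KRT81 had 61.2 and 209.5 CPM (3.42-fold, log2 interval for counting error 1.60 to 1.95), with 40.9% and 31.3% of the UMIs in the top member of each pool. With barcodes thinned before ranking its log2 ratio was -0.215. AKAP12, a kinase-anchoring scaffold gene, had 168.2 and 378.6 CPM (2.25-fold), with 29.04% and 23.6% in the top member. Without tag H-HTO-2 of the aged pool its log2 ratio was 0.546, under 1.5-fold, and without H-HTO-6 of the young pool it was 1.81. LCN2 (2.27-fold) and S100A4 (1.97-fold) completed the 6 genes highest in the aged pool. S100A4 had 139.1 and 273.8 CPM, from 57.4% and 54.4% of members, and its log2 ratio was -0.263 when ranked without MMP9. That of LCN2 was -0.184 in the top 16% and -0.559 with thinning. None of these 6 genes was past 1.5-fold in the others except PAEP, which was 2.19-fold lower there in the aged pool without reaching the minimum level.

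Lower in the aged pool were MMP3, SPRR2A, CPE, KRT75, LGALS7B and CCL20. CPE, a carboxypeptidase that trims prohormones, had 26.8 and 12.8 CPM, with 11.4% and 11.3% of its UMIs in the top member. LGALS7B, a keratinocyte galectin, had 22.7 and 12.0 CPM, and its near-identical copy LGALS7 makes its counts uncertain. CCL20, a chemokine, had 68.1 and 36.0 CPM. MMP3 had 33.7 and 15.2 CPM (2.21-fold lower). SPRR2A, at 106.3 and 50.3 CPM, had 77.0% and 51.2% of its UMIs in the top member of each pool, and without these members its log2 ratio was 0.018. It was also 2.23-fold lower in the others of the aged pool.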

How the data were processed

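Both samples are raw UMI counts per gene and barcode, made with Cell Ranger 6.0.0 on GRCh38 and mm10, per the submitters' processing notes, and used here as deposited by the authors. The hashing libraries gave tag counts for the same barcodes. Mouse barcodes were used only as a background. Members and gene lists were chosen with earlier results of these data known, and the ranking used the same cells, so members against others is a description. UMIs were summed per group and divided by the group's human UMIs (CPM), and a sum of 0 was set to 3 counts for a ratio. With 1 library a group no test was run, and exact Poisson and binomial 95% intervals cover counting error only. Samples are named by their group, and the replicates of a pool cannot be separated.

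A tag was assigned where it had at least 10 counts and at least 3 times the second. Barcodes with a doublet score of 0.25 or more were kept, and left out in an alternative. Neighbours used 30 components of 2000 variable genes. Named genes were the ranked genes, MKI67 and TOP2A, the 12 highest and 12 lowest ratios, the 6 highest and 6 lowest ratios between pools, all members of 5 protease, AP-1 and invadopodia lists, and up to 3 at each end of the other lists. Other genes named, such as LAMB3, KRT81 in the ranking, VEGFA, HAS2 and S100A8, were chosen after their values were seen. Python 3.11.15 with scanpy 1.11.5, numpy 2.4.6, scipy 1.17.1, pandas 2.3.3 and scikit-learn 1.9.0 was used, with edgeR 4.0.16 for TMM factors only. The ratio calculation was tested on simulated data. Other scalings, minimum levels, rankings, filters and tag sets were tried. Promoters are from RefSeq (GRCh38.p14), positions from GENCODE 29.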

Additional observations from a re-analysis of the deposited data

How the results depend on the processing

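No paired analysis was possible because each group is 1 library with no replicate to pair. Over 198 named genes and 29 alternatives, 5663 log2 ratios moved by under 1.5-fold, 252 by more, and 7 reversed. The first count is partly fixed in advance. Alternatives on the minimum level or the fold limit leave each ratio as it was. TMM scaling, median-of-ratios scaling and a total without MMP1, MMP9 and MMP10 move all ratios of a comparison alike, by under 1.5-fold. CCL20, which did not stand apart between members and others, was at 0.233 there when ranked without MMP9. The other 6 were aged against young ratios within members: LCN2 at -0.184 in the top 16% and -0.559 with barcodes thinned before ranking, KRT81 at -0.215 with thinning, S100A4 at -0.263 when ranked without MMP9, and SPRR2A at 0.238 over barcodes with 1 tag and 0.0180 without its top member. The cause was not tested. The aged to young ratio of member shares was 0.714 without tag H-HTO-4 of the young pool, 0.609 without H-HTO-2 of the aged pool and 1.62 over barcodes with 1 tag. For members against others, lower genes were 766 in the top 16%, 846 without MKI67 or TOP2A UMIs and 876 with median-of-ratios scaling. Higher and lower genes were 312 and 313 at a minimum of 100 CPM, 1546 and 3287 with no minimum, and 540 and 568 at 2-fold. For aged against young within members, higher and lower genes were 116 and 74 in the top 4%, 13 and 17 in the top 16%, 21 and 19 with thinning (481 members, ties kept), 122 and 81 without H-HTO-2 of the aged pool, 136 and 94 with 1 tag, 190 and 49 with equal weights, 6 and 8 at 100 CPM, 105 and 74 with no minimum and 5 and 3 at 2-fold. Lower genes were 55 at 98% human UMIs, 48 without H-HTO-4 of the aged pool and 44 without MKI67 or TOP2A UMIs. The alternatives on single tags other than H-HTO-2 of the aged pool, 1 tag, MKI67 and TOP2A, the top member, the mitochondrial denominator and others with no UMI were chosen after seeing the data. Members hold 6225049 and 4854178 human UMIs, which limits the pool ratios of low genes.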

Other observations

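Lists of other pathways gave mixed counts in the MMP-high cells. Of 26 measured stress and dissociation genes 8 were higher and 5 lower. HMOX1, which breaks down haem, had 103.5 CPM in members and 7.90 in the others of the young pool, and 86.5 and 8.35 in the aged pool, with 52.3% of the young members' UMIs in 1 barcode. HSPA6, an inducible heat shock gene, had 336.5 against 62.0 and 281 against 34.0 CPM. KLF4 and BTG2, both induced early by stress, were lower, with mean log2 ratios of -1.30 and -0.90. Of 13 measured p53 and senescence genes 7 were higher and 3 lower. IGFBP6, a growth factor binding protein gene, had 369 against 34.6 and 253 against 26.0 CPM, and CDKN1A, the cell cycle inhibitor p21, had a mean log2 ratio of 1.08. LMNB1, the lamin B1 gene, was lower at 5.46 against 46.1 and 3.30 against 43.0 CPM.

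Of 7 measured Notch and Wnt genes 1 was higher and 5 lower. JAG1, a Notch ligand, had 308 against 72.8 and 375 against 71.1 CPM, while SFRP1, a Wnt antagonist, had 138.5 against 647 and 127 against 720.2 CPM. Of 12 measured Hippo pathway targets 4 were higher and 0 lower, among them F3, tissue factor, at 352 against 119 and 357 against 107 CPM, while CCN2 did not stand apart. The members shared 123 barcodes (35.3%) with the top 8% on S100A8 and SERPINA1, 54 (15.5%) with the top 8% on CCN2 and ADM, 16 (4.60%) with the top 8% on FGFR1 and NTRK2, and 0 with the top 8% on AGR2 and KLK5. Each of these sets holds 348 of the 4348 human barcodes, so the share over all human barcodes to set beside these percentages is 8%. No test of the overlaps was made.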
